A study of Saccharomyces cerevisiae with 37 samples.

Results

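The comparison described here is that of the 25xGFA1 strain with wild type (WT) in budding yeast, Saccharomyces cerevisiae, before copper and 5 min after its addition. It uses every library labelled 0 or 5 min, which are 9 of the 37 libraries of a copper time course. Of these, 4 are from 25xGFA1 (2 at 0 min and 2 at 5 min) and 5 are from WT (3 at 0 min and 2 at 5 min). The strains were compared with time as a term in the fit, and then again over 8 libraries, without WT 0 min replicate 1.

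The study followed both strains for 60 min after copper sulfate, with 3′-end sequencing of mRNA by the Lexogen QuantSeq kit, which counts reads near the end of each transcript. The 25xGFA1 strain (BMY3661 in the strain label) carries a 25x array of GFA1 behind the copper-inducible CUP1 promoter, and WT (BMY1051) carries none. Per the labels both are haploid, of mating type a ("Haploid, MAT A") and of the BY4741 background, and both were grown in YPD, washed and kept in copper-free minimal medium before sampling. The 0 min samples of both strains had no copper, and the 5 min samples had the copper sulfate of the time course. The figure for copper is 500, in uM in the note on treatment and in mM in that on growth, and its unit was not settled here. Per the growth note a culture was sampled over time. The 9 libraries thus come from 2 cultures of 25xGFA1 and 3 of WT, the third of which has its 0 min library only. The p-values below measure the spread between these samples. The edgeR fit of strain and time has no term for culture, so its p-values treat libraries of the same culture as separate samples. A fit with culture as a random effect is given as an alternative. One strain label covers both 25xGFA1 replicates, but the headings of the count table carry a different strain number for each. Whether the replicates are separate isolates is therefore unknown, as is the position of the array in the genome.

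Gfa1 makes glucosamine-6-phosphate from fructose-6-phosphate and glutamine, the first step of the pathway to UDP-N-acetylglucosamine, the building block of chitin and of protein glycosylation. Budding yeast cells of mating type a express a-specific genes, and haploid cells of either mating type express haploid-specific genes that include the pheromone signalling pathway. In a/alpha diploid cells, a repressor made of the a1 and alpha2 proteins shuts the haploid-specific genes off, and alpha2 shuts the a-specific genes off. The BY4741 background is known for deletions at LEU2, URA3 and MET17 and a partial one at HIS3, which serve as selectable markers in strain construction. Leucine supply is read by Leu3, a factor that binds the promoters of branched-chain amino acid genes, and general stress genes are switched on by Msn2 and Msn4 through the stress response element.

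The promoters below belong to genes on which the results turn, and were read from the R64 genome of RefSeq. Each line holds the 200 bases that lie 300 to 101 bases before the annotated gene start, 5′ to 3′ on the strand of the gene. FUS1 (chrIII:71503-71702, plus strand) and BAR1 (chrIX:322042-322241, plus strand) are shown for the mating genes, with the letters TGAAACA, known as the pheromone response element, in capitals. LEU1 (chrVII:478753-478952, minus strand) and BAT1 (chrVIII:517232-517431, plus strand) are shown for the leucine genes, with the Leu3 site in capitals, which is CCGG on each side of 2 bases of any kind. HSP12 (chrVI:106956-107155, plus strand) and CTT1 (chrVII:654334-654533, plus strand) are shown for the stress genes, with the letters AGGGG of the stress response element in capitals, here as the reverse complement.
FUS1: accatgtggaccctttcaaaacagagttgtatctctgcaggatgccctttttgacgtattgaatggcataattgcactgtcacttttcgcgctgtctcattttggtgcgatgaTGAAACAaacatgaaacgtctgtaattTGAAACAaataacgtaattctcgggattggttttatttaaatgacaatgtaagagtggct
BAR1: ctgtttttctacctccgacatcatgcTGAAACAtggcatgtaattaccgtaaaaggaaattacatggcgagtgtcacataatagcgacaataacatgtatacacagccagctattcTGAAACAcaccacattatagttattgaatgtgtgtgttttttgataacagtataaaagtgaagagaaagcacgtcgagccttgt
LEU1: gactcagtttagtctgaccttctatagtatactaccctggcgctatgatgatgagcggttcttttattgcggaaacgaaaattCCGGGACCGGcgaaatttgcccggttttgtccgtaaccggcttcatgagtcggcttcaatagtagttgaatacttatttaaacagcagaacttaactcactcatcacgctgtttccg
BAT1: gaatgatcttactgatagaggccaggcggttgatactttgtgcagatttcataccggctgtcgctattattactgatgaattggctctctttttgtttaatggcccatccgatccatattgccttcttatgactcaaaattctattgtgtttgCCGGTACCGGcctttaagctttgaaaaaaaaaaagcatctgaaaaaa
HSP12: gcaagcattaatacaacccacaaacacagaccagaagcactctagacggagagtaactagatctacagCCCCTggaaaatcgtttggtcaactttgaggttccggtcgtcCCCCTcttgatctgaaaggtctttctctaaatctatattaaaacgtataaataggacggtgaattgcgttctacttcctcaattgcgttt
CTT1: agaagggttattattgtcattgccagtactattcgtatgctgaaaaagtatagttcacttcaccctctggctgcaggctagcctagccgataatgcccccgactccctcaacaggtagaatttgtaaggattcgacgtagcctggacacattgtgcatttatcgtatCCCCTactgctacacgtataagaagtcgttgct
Both strands were searched over the 300 bases before the start of 4751 genes, with overlapping matches counted. TGAAACA was in 336 of these windows (7.07%), in 12 of the 32 genes called higher in 25xGFA1 with 9 libraries (37.5%) and in 0 of the 18 called lower. Over 8 libraries it was in 29 of 154 higher genes with a window (18.8%) and in 7 of 153 lower genes (4.58%). AGGGG was in 1057 windows (22.2%), in 1 of the 32 higher genes and in 9 of the 18 lower genes (50%). Over 8 libraries AGGGG was in 20 of 154 higher genes (13%) and in 91 of 153 lower genes (59.5%). The Leu3 site was in 9 windows (0.189%), and the genes LEU1, LEU2 and BAT1 were among those 9. A match is a run of letters, and says nothing of whether a factor was bound there.

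Gene counts per library ran from 590522 to 662865 in 25xGFA1 and from 305028 to 887971 in WT, and 5394 to 5610 genes had a count. WT 0 min replicate 1 stood apart. It had 305028 gene counts, 36.6% of its reads in genes, and a median Spearman correlation with the other libraries of 0.695, where the other 8 had 0.904 to 0.953. WT 0 min replicate 3, with the highest total, was the next most distant. The chi-square per degree of freedom between replicates was above 1 in every pair (1.61 to 35.3), so none repeats another. Levels below are in CPM, the share of a library's gene counts that a gene holds on the usual scale, with library sizes adjusted by TMM, and 3 counts correspond to 3.26 to 7.93 CPM across libraries.

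With all 9 libraries, 50 of 4806 genes tested differed between 25xGFA1 and WT (1.04%; edgeR quasi-likelihood test, Benjamini-Hochberg adjusted p below 0.05). Of these, 32 were higher in 25xGFA1 (0.666%) and 18 were lower (0.375%). Without WT 0 min replicate 1, 309 of 4735 genes differed (6.53%), 155 higher (3.27%) and 154 lower (3.25%). The estimated biological coefficient of variation was 29.8% over 9 libraries and 15.2% over 8. All 50 genes called with 9 libraries were called with 8, in the same direction. By position alone, all 4 25xGFA1 libraries exceeded all 5 WT libraries in 307 genes (6.39%) and lay below them in 193 genes (4.02%). Against the 4 WT libraries left without 0 min replicate 1, these were 394 (8.32%) and 322 (6.8%) genes. The 9-library count was 23 and 32 without 25xGFA1 0 min replicates 1 and 2, 29 and 32 without 25xGFA1 5 min replicates 1 and 2, and 25 and 27 without WT 5 min replicates 1 and 2. The 8-library count was 111, 147, 161 and 154 on leaving out the same 4 25xGFA1 libraries in turn, 131 when WT 5 min replicate 1 was left out, and 496 when WT 0 min replicate 2 was. With 9 libraries, 21 of the 50 genes kept their call whichever library was left out. With 8 libraries all 50 did. The 50 were picked by the 9-library fit, which holds the same 8 libraries, so this is no check of the 309 genes. With voom and culture as a random effect, which takes account of libraries from the same culture, 29 of the 50 were called with 9 libraries and 48 with 8, where CYT1 and QDR2 were lost.

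GFA1 (YKL104C, chromosome XI, 243220 to 245373, minus strand in R64) was higher in 25xGFA1 before copper was added. Its level in 25xGFA1 was 1779 and 1972 CPM at 0 min, and 2869 and 3361 CPM after 5 min. In WT it was 341, 122 and 33.6 CPM at 0 min (replicates 1 to 3), and 180 and 176 CPM after 5 min. The lowest 25xGFA1 library lay above the highest WT library, and both 5 min libraries of 25xGFA1 lay above both of its 0 min libraries. Over both times the mean was 2495 ± 747 CPM in 25xGFA1 (SD, n = 4) and 171 ± 112 CPM in WT (SD, n = 5). It was 128 ± 68.3 CPM in WT without 0 min replicate 1 (SD, n = 4). Here n counts libraries, not cultures, and the SD of 25xGFA1 includes its rise from 0 to 5 min. The log2 difference over 0 and 5 min together was 3.81 (SE 0.54, edgeR adjusted p = 0.00676), a fold of 14.0. It was 4.37 over 8 libraries (SE 0.27, edgeR adjusted p = 6.66e-07), a fold of 20.7. Over the 0 min libraries alone, GFA1 was not called with WT 0 min replicate 1 in the fit and was called without it. The gene counts do not tell reads of the array copies from reads of the chromosomal gene. The sequence at the 3′ end of the array transcripts is not given here.

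Few other genes of the same pathway changed. Of 15 hexosamine and chitin genes tested, 2 were higher in 25xGFA1 with 9 libraries. These were GFA1 and UTR2, whose product joins chitin to glucan in the wall. UTR2 had 294, 258, 311 and 261 CPM in 25xGFA1 (0 min replicates 1 and 2, then 5 min replicates 1 and 2). In WT it had 159, 146, 84.6, 144 and 148 CPM (0 min replicates 1 to 3, then 5 min replicates 1 and 2), with no overlap between strains. Its log2 difference was 1.04 (SE 0.20, edgeR adjusted p = 0.0434) with 9 libraries, and 7 of the 9 leave-one-out fits and the fit with culture as a random effect lost that call. SKT5, an activator of chitin synthase III, was called with 8 libraries alone (log2 difference 0.50, adjusted p = 0.0358), and 10 of 18 alternatives ended that call. The median log2 difference of the 15 genes was 0.34 with 9 libraries and 0.31 with 8, against -0.03 and -0.01 over all genes tested. GFA1 was the only one of the 15 past a log2 difference of 2 in either fit. The genes tested beside it on chromosome XI, AAT1, SEG2 and APE1, were not called. CUP1-1 and CUP1-2, the metallothionein genes whose promoter drives the array, were listed at 0 in all 9 libraries. RUF5-1, RUF5-2 and YHR054C, annotated beside them, were at 0 as well. Reads that align at several places are left out of gene counts, so a 0 here does not show that CUP1 was silent. The other copper genes are among the lists described further on.

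LEU2, the enzyme of the penultimate step of leucine synthesis, was read in 25xGFA1 and not in WT. LEU2 (YCL018W, chromosome III, 91324 to 92418, plus strand in R64) had 522 and 555 CPM at 0 min, then 553 and 492 CPM after 5 min, in 25xGFA1, and 0 counts in each of the 5 WT libraries. Against a floor of 3 counts over the WT group, LEU2 was at least 555-fold higher in 25xGFA1 (edgeR adjusted p = 8.03e-05). The other markers of the background did not follow it. URA3 and MET17 were at 0 in all 9 libraries. HIS3 had 109, 122, 126 and 99.2 CPM in 25xGFA1, against 76.7, 125, 153, 130 and 106 CPM in WT, with overlapping ranges (log2 difference -0.06, adjusted p = 0.92). The HIS3 sign turned in 4 of the alternatives tried, and 3′-end reads outside the deleted stretch of HIS3 check nothing.

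LEU1 was the lower gene of leucine supply with 9 libraries, and OAC1, BAT1, BAP2 and GDH1 joined it with 8. LEU1, isopropylmalate isomerase, the step before Leu2, had 84.9, 62.0, 100.2 and 62.5 CPM in 25xGFA1, against 291, 408, 396, 312 and 381 CPM in WT. Every 25xGFA1 library lay well below every WT library, WT 0 min replicate 1 included. Its log2 difference was -2.21 (SE 0.22, edgeR adjusted p = 8.25e-04), or 4.62-fold lower, and -2.27 with 8 libraries (adjusted p = 4.31e-06). OAC1, a mitochondrial carrier that exports the leucine precursor isopropylmalate, had 44.1, 31.0, 20.7 and 22.0 CPM in 25xGFA1 and 31.7, 160, 119, 94.1 and 132 CPM in WT. WT 0 min replicate 1 was the one WT library of OAC1 inside the 25xGFA1 range, and the log2 difference was -1.88 with it (adjusted p = 0.0741) and -2.09 without it (adjusted p = 6.37e-05). BAT1, the mitochondrial branched-chain aminotransferase, had 138 to 196 CPM in 25xGFA1 and 230 to 381 CPM in WT. Its log2 difference was -0.95 (adjusted p = 0.0803) with 9 libraries and -0.98 (adjusted p = 0.00831) with 8.

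BAP2, a permease for branched-chain amino acids, had 165 to 169 CPM in 25xGFA1 and 209 to 526 CPM in WT. It was called with 8 libraries alone (log2 difference -0.77, edgeR adjusted p = 0.0073). GDH1, the NADP-dependent glutamate dehydrogenase, had 769 to 843 CPM in 25xGFA1 and 436, 1224, 1569, 1350 and 1518 CPM in WT, where 0 min replicate 1 was the lowest of all 9 libraries. Its log2 difference over 8 libraries was -0.81 (adjusted p = 7.93e-04). Of 16 leucine and branched-chain genes tested, 1 was higher (LEU2) and 1 lower (LEU1) with 9 libraries, and 1 was higher and 5 lower with 8. The median log2 difference was -0.20 and -0.23. The genes LEU4, LEU9, ILV2 and ILV5 of the same list were not called in either fit, and NFS1 and BUD3, tested beside LEU2 on chromosome III, were not called.

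**Figure D1:**
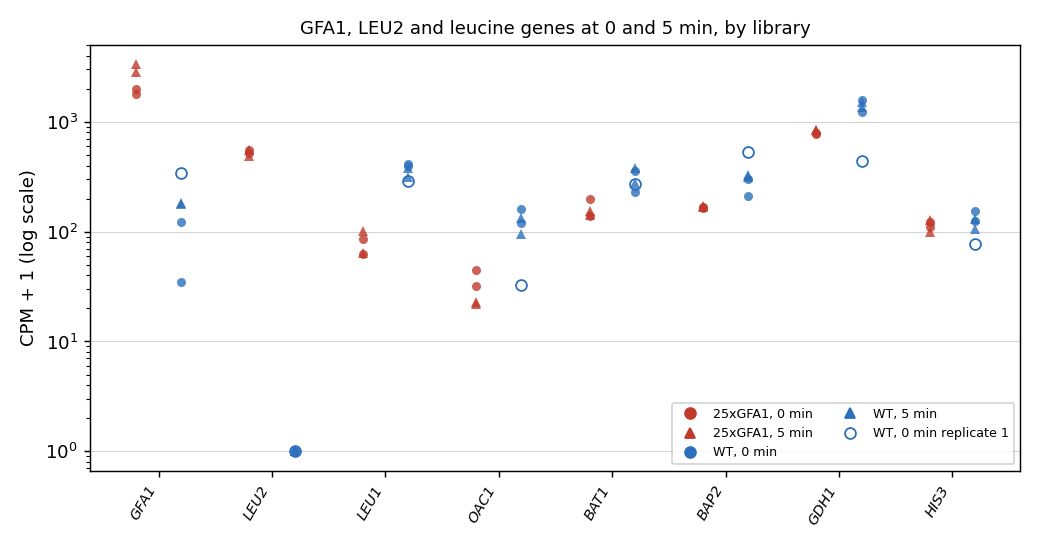
Level of GFA1, LEU2, 5 genes of leucine supply and nitrogen metabolism, and HIS3 in each library, as CPM + 1 on a log axis. For each gene 25xGFA1 (red) stands left of WT (blue), circles are 0 min, triangles 5 min, and the open circle is WT 0 min replicate 1. GFA1 and LEU2 are higher and LEU1 is lower in all 4 25xGFA1 libraries than in all 5 WT libraries.

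All 7 a-specific genes tested were higher in 25xGFA1 in both fits. The pheromone receptor gene STE2 had 313, 320, 278 and 268 CPM in 25xGFA1, against 23.8, 38.4, 29.3, 24.8 and 33.0 CPM in WT. The strains did not overlap, and WT 0 min replicate 1 was the lowest WT library. The STE2 log2 difference was 3.30 (SE 0.19, edgeR adjusted p = 1.98e-05), the smallest adjusted p of the 50 genes, and 3.24 with 8 libraries. BAR1, the protease that degrades alpha factor, had 307, 269, 335 and 292 CPM in 25xGFA1 and 15.9, 43.2, 33.6, 39.6 and 37.9 CPM in WT (log2 difference 3.09, adjusted p = 8.25e-05). MFA1, a gene for the a-factor precursor, had 947, 854, 777 and 999.6 CPM in 25xGFA1 and 15.9, 147, 64, 87.5 and 152 CPM in WT (log2 difference 3.24, adjusted p = 0.00676). MFA2, the other a-factor gene, had 651 to 711 CPM in 25xGFA1 and 5.29 to 122 CPM in WT. MFA1 and MFA2 encode nearly the same peptide, and any read that aligned to both was left out of gene counts.

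The remaining a-specific genes were AGA2, a subunit of a-agglutinin, with a log2 difference of 2.59 (edgeR adjusted p = 0.00281), STE6, the a-factor exporter, with 2.50 (adjusted p = 0.00737), and ASG7, a regulator of pheromone signalling, with 2.28 (adjusted p = 0.0086). The median of the 7 was 3.09 with 9 libraries and 2.91 with 8. The summed level of the list was 2444 to 2670 CPM in 25xGFA1 and 177 to 396 CPM in WT, with no member at 0. In WT, AGA2 had its lowest and STE6 its highest level in 0 min replicate 1. ASG7 lost its 9-library call without 25xGFA1 0 min replicate 1 or WT 5 min replicate 2, and MFA2 without WT 5 min replicate 1 and with culture as a random effect.

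Haploid-specific genes were higher in 25xGFA1 as well. Of 12 tested, 9 were called higher with 9 libraries and 12 with 8, and none was lower. HO, the mating-type switching endonuclease, had 328, 346, 344 and 301 CPM in 25xGFA1, against 37.0, 44.8, 32.6, 52.8 and 28.0 CPM in WT (log2 difference 3.07, SE 0.21, edgeR adjusted p = 6.90e-05). GPA1, the alpha subunit of the pheromone G protein, had 71.8, 55.1, 65.6 and 62.5 CPM in 25xGFA1 and 15.9, 6.41, 11.9, 11.6 and 6.59 CPM in WT (log2 difference 2.63, adjusted p = 0.00128). The lowest 25xGFA1 library lay well above the highest WT library in both genes. The other G protein subunit genes, STE4 and STE18, and STE5, the scaffold of the kinase cascade, had log2 differences of 2.03, 1.94 and 1.92. FAR1, which arrests the cell cycle on pheromone, AXL1, which processes a-factor, RDH54, a DNA repair factor, and AMN1, an inhibitor of mitotic exit, had 2.50, 2.28, 1.62 and 1.38.

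FUS3, the pheromone MAP kinase, RME1, a repressor of meiosis, and STE12, the transcription factor of the pathway, were called with 8 libraries alone (log2 differences 2.05, 2.68 and 1.23, edgeR adjusted p = 0.0227, 0.0144 and 0.0495). STE12 had the smallest separation of the 12, with 31.1 to 66.9 CPM in 25xGFA1 and 9.77 to 44.9 CPM in WT, where 0 min replicate 1 was the highest. RME1 and FUS3 were near the floor in WT, with at most 5.29 and 7.60 CPM. The median log2 difference of the haploid list was 2.06 with 9 libraries and 1.99 with 8, and its summed level was 1472 to 1540 CPM in 25xGFA1 and 308 to 389 CPM in WT. AMN1, STE4 and FAR1 lost their 9-library calls in 8, 5 and 7 of the 9 leave-one-out fits, and AMN1 and STE4 also with culture as a random effect. The 8-library call of STE12 ended in 13 of 18 alternatives (adjusted p up to 0.403), that of FUS3 in 5 of 16 and that of RME1 in 3 of 15, with culture as a random effect among them for all 3 genes.

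Of 14 pheromone-induced genes tested, 5 were higher in 25xGFA1 with 9 libraries and 9 with 8, with none lower. FUS1, a cell fusion protein, had 97.9, 89.6, 95.0 and 68.0 CPM in 25xGFA1, against 7.93, 9.61, 10.9, 14.9 and 11.5 CPM in WT (log2 difference 2.96, SE 0.24, edgeR adjusted p = 1.64e-04). AGA1, the anchor of a-agglutinin, had 248 to 294 CPM in 25xGFA1 and 15.9 to 87.9 CPM in WT (2.32, adjusted p = 0.00805). SST2, which turns pheromone signalling off, had 86.5 to 116 CPM in 25xGFA1 and 10.9 to 29.1 CPM in WT (2.23, adjusted p = 0.00297). MSB2, a mucin of the filamentous growth pathway, had a log2 difference of 1.16 (adjusted p = 0.0216). PRM5, FIG2, PRM4 and KAR4 were called with 8 libraries alone, with log2 differences of 1.42, 0.93, 0.97 and 0.80. Of 18 alternatives, 13 ended the 8-library call of KAR4 (adjusted p up to 0.418), 7 that of PRM4, 5 that of PRM5 and 5 that of FIG2. ASG7 counts here too, since the lists overlap. The median of the 14 was 0.97 in both fits, and the summed level was 1343 to 1513 CPM in 25xGFA1 and 584 to 708 CPM in WT. AGA1 lost its 9-library call without either WT 5 min library, and MSB2 in 7 of the 9 leave-one-out fits and with culture as a random effect. Over the 3 mating lists, 20 of the 32 genes called higher with 9 libraries were members (62.5%), as were 27 of the 155 called higher with 8 (17.4%), of 32 members tested.

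Markers of the other cell types moved as follows. IME4, an RNA methyltransferase of the meiotic programme, had 0 counts in all 4 25xGFA1 libraries and 47.6, 20.8, 33.6, 16.5 and 11.5 CPM in WT. It was at least 19.45-fold lower in 25xGFA1, against a floor of 3 counts over that group (edgeR adjusted p = 0.0101), and the call ended without 25xGFA1 0 min replicate 1 or WT 5 min replicate 1 and held in the other leave-one-out fits. RME2, the transcript antisense to IME4, had 32.6, 34.4, 34.5 and 45.9 CPM in 25xGFA1, against 29.1, 17.6, 5.43, 16.5 and 8.24 CPM in WT (log2 difference 1.36, adjusted p = 0.215, and 1.66, adjusted p = 0.0135, with 8 libraries). The strand setting of the counting is not given in the sources used here, so reads of IME4 and RME2 may be mixed. IME4 is known to be transcribed in a/alpha diploid cells, where the a1 and alpha2 repressor shuts RME2 off. The meiosis list, IME4 included, summed to 63.7 to 70.8 CPM in 25xGFA1 and 74.2 to 110.69 CPM in WT, with 2 of its 18 genes tested. IME4 holds 11.5 to 47.6 CPM of the WT sums, so the sums are no result about the rest of the list. NDT80, the other gene tested, was not called (log2 difference -0.19, edgeR adjusted p = 0.839).

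HMRA1, the gene to which reads of the a1 transcript are assigned in this genome, had 224, 177, 211 and 226 CPM in 25xGFA1 and 201, 128, 187, 142 and 124 CPM in WT. The ranges overlapped (log2 difference 0.45, edgeR adjusted p = 0.404). Of the 4 alpha-specific genes, only SAG1, the alpha-agglutinin, was tested. It had 25.8 to 38.6 CPM in 25xGFA1 and 7.60 to 26.4 CPM in WT (log2 difference 0.74, adjusted p = 0.377). The alpha-factor gene MF(ALPHA)1 was at 0 in all 9 libraries, as was MATALPHA1. MATALPHA1 has an identical copy at the silent locus HML, so its reads align at several places and are left out of gene counts. The a-specific and haploid-specific lists were thus higher in 25xGFA1 and IME4 was read in WT alone, while the label is haploid of mating type a for both strains. The part of cell type in the strain difference was not tested. In bulk samples, fewer cells of a type and less RNA per cell cannot be told apart.

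**Figure D2:**
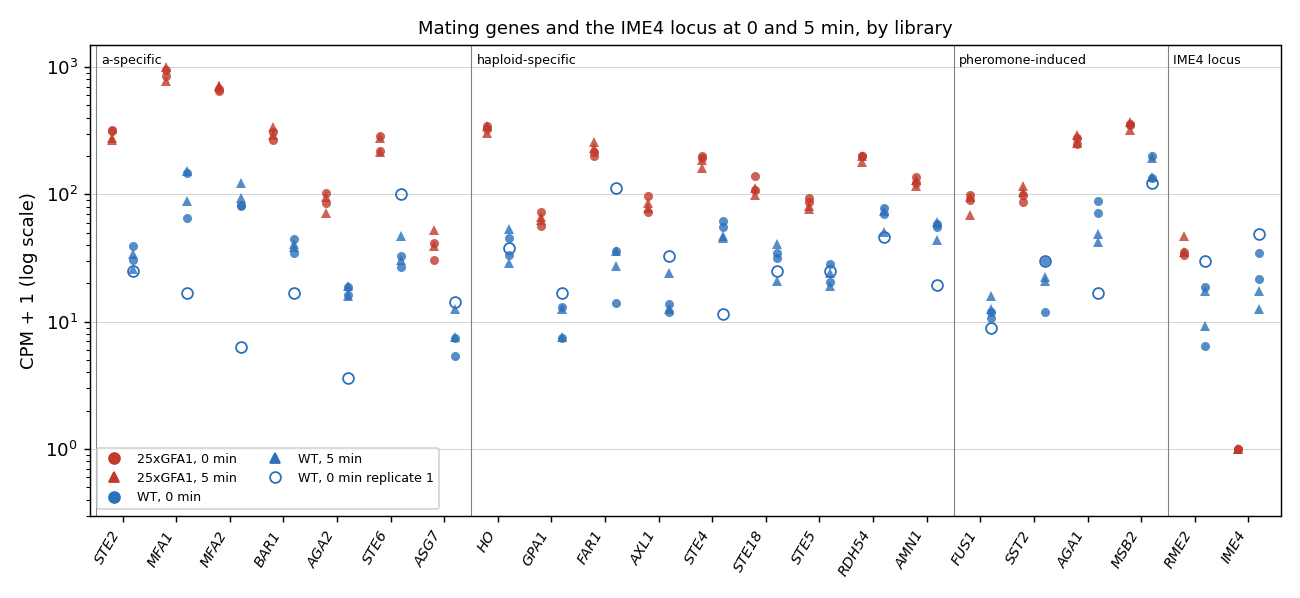
Level of 22 a-specific, haploid-specific, pheromone-induced and other mating-type genes in each library, as CPM + 1 on a log axis. For each gene 25xGFA1 (red) stands left of WT (blue), circles are 0 min, triangles 5 min, and the open circle is WT 0 min replicate 1. STE2, BAR1, HO and FUS1 separate the strains without overlap, and IME4 is at 0 in 25xGFA1.

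Genes of the general stress response were lower in 25xGFA1. Of 27 tested, 3 were lower and none higher with 9 libraries, and 18 were lower and 1 higher with 8. The median log2 difference was -1.11 and -1.18. The called genes with 9 libraries were GLC3, the glycogen branching enzyme, CTT1, the cytosolic catalase, and GSY1, a glycogen synthase. GLC3 had 22.9, 39.6, 34.5 and 51.4 CPM in 25xGFA1, against 124, 76.9, 96.6, 134 and 120 CPM in WT (log2 difference -1.61, SE 0.24, edgeR adjusted p = 0.00828). CTT1 had 18.0, 12.1, 25.9 and 27.6 CPM in 25xGFA1, against 37.0, 40.0, 84.6, 102 and 89.0 CPM in WT (-1.86, adjusted p = 0.0149). Neither gene overlapped between strains. GSY1 had 15.5 to 27.6 CPM in 25xGFA1 and 28.8 to 75.9 CPM in WT (-1.49, adjusted p = 0.0207). GLC3 lost the 9-library call without 25xGFA1 0 min replicate 1, and CTT1 and GSY1 each lost it without any 1 of the 4 25xGFA1 libraries or the 2 WT 5 min libraries. With culture as a random effect GLC3 was called with 9 libraries, and CTT1 and GSY1 were not, and all 3 were called with 8.

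HSP12, a small membrane-protecting stress protein, had the largest difference of the list. HSP12 had 6.53, 82.7, 12.1 and 34.9 CPM in 25xGFA1, against 42.3, 583, 396, 357 and 437 CPM in WT. WT 0 min replicate 1 fell inside the 25xGFA1 range and the other 4 WT libraries lay above it. Its log2 difference was -3.43 (SE 0.79, edgeR adjusted p = 0.0846) with 9 libraries and -3.73 (SE 0.41, adjusted p = 1.35e-04) with 8. Other genes called lower with 8 libraries were those of glycogen and trehalose, GPH1, GSY2, TPS1 and TPS2 (log2 differences -2.30, -1.27, -0.80 and -1.17). SOL4, of the pentose phosphate pathway, and GPD1, of glycerol synthesis, had -2.33 and -1.35. TSL1, a subunit of trehalose synthase, had -1.02 and was not called (adjusted p = 0.0515). DDR48, a stress gene of the same list, was higher in 25xGFA1 with 8 libraries (0.55, adjusted p = 0.0154), and 6 of 18 alternatives ended that call. The calls of HSP12 and GPD1 held in all 18 alternatives, and those of GPH1, GSY2, TPS1, TPS2 and SOL4 ended in 1 to 3 of them. The summed level of the list was 1980 to 3285 CPM in 25xGFA1 and 4010 to 5141 CPM in WT.

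**Figure D3:**
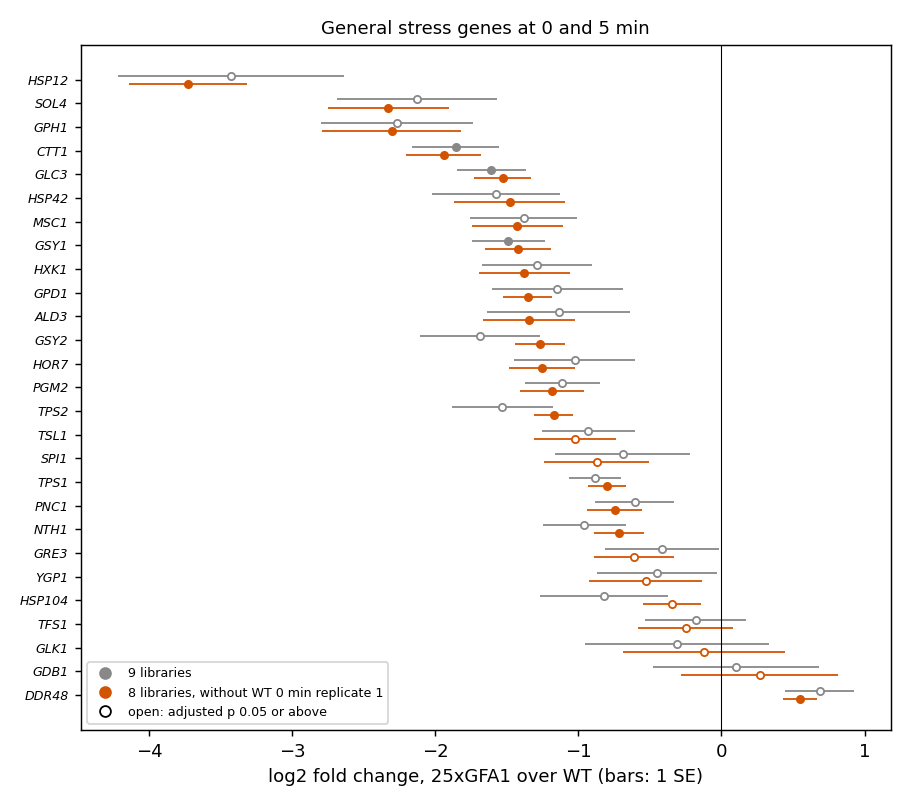
Log2 difference (25xGFA1 over WT) of 27 general stress genes with its SE, with 9 libraries (grey) and with 8, without WT 0 min replicate 1 (orange). Filled points are called at an adjusted p below 0.05 and open points are not. HSP12 has the lowest value and DDR48 lies above 0.

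The remaining genes called with 9 libraries fall outside these lists for the most part. The lower ones were led by TPO2, a polyamine exporter, with 3.26, 13.8, 5.18 and 11.0 CPM in 25xGFA1, against 26.4, 59.3, 48.8, 61.1 and 75.8 CPM in WT (log2 difference -2.73, edgeR adjusted p = 0.0086). BDH2, a putative butanediol dehydrogenase, had -2.10, RGI1, a respiratory growth protein, -1.66, YMR196W, a protein of unknown function, -1.61, and QDR2, a drug exporter, -1.53. TPO2 and BDH2 were each at 3.26 CPM in 25xGFA1 0 min replicate 1, below the floor of 3 counts (4.90 CPM there). TPO2 was at that floor in 25xGFA1 5 min replicate 1, so the size of both differences is uncertain. PIC2, a mitochondrial carrier of phosphate and copper, had 65.3, 84.4, 112 and 153 CPM in 25xGFA1, against 267, 187, 245, 342 and 315 CPM in WT (-1.48, adjusted p = 0.00618). The respiratory chain genes CYT1, cytochrome c1, and COX5B, an alternative subunit of cytochrome oxidase, had -1.25 and -0.91. CIN5, a bZIP factor, had -1.70, DIC1, a mitochondrial dicarboxylate carrier, -1.23, GOR1, glyoxylate reductase, -1.19, RPI1, a putative transcriptional regulator, -1.13, and AGP1, an amino acid permease, -0.84. Of these 13 genes, PIC2 alone kept its 9-library call in all 9 leave-one-out fits. TPO2, YMR196W and PIC2 were the ones called with culture as a random effect.

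Among the higher ones, NFG1, a regulator of filamentous growth, had 19.6, 25.8, 12.1 and 25.7 CPM in 25xGFA1, against 2.64, 3.20, 2.17, 1.65 and 3.30 CPM in WT (log2 difference 2.94, edgeR adjusted p = 0.00676). YCL021W-A, an unnamed reading frame on chromosome III, had 21.2 to 29.3 CPM in 25xGFA1 and 1.60 to 6.60 CPM in WT (2.97, adjusted p = 0.00676). The WT levels of NFG1 are below the floor of 3 counts in all 5 libraries. Those of YCL021W-A are below it in all but WT 5 min replicate 1 (6.60 CPM). The size of both differences is therefore uncertain. SRD1, of pre-rRNA processing, AXL2, a bud site landmark, AHC2, of the ADA acetyltransferase complex, YLR460C and RSN1 had 2.01, 1.61, 1.35, 1.30 and 0.84. The retrotransposon genes YLR227W-B and YBL005W-B had 2.15 and 1.79, and belong to families of near-identical copies. Reads that align to several copies are left out of gene counts, so their levels are uncertain. NFG1, YCL021W-A, SRD1 and YLR227W-B kept their calls in all 9 leave-one-out fits, and AXL2, AHC2, YLR460C and RSN1 lost theirs with culture as a random effect.

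Most other lists held few or no called genes with 9 libraries. With 9 libraries, no gene was called among 11 copper genes, 19 iron uptake genes, 15 zinc genes, 25 cell wall integrity genes, 29 Hsf1 target chaperones, 69 ribosome assembly genes, 137 ribosomal protein genes, 38 Gcn4 target genes, 33 proteasome genes, 10 histone genes or 39 genes of mRNA packaging and export. Over all genes tested, 1.04% were called with 9 libraries and 6.53% with 8 (3.27% higher and 3.25% lower). List counts near these shares are no result about a list. With 8 libraries, 1 of 8 hexose transport genes was higher and 3 were lower. Of 20 glycolysis genes 1 was higher and 3 were lower, among them TDH1 (log2 difference -1.69, edgeR adjusted p = 1.61e-04) and ENO1 (-1.39, adjusted p = 8.88e-04). Of 40 respiration genes 3 were higher and 4 lower. The stability of the hexose transport and glycolysis calls is not given here. With 8 libraries, 1 of the 11 copper genes was called, the metallothionein gene CRS5 (log2 difference -1.11, edgeR adjusted p = 0.0421), and 12 of 18 alternatives ended that call (adjusted p up to 0.351). FIT2 and FIT3, cell wall mannoproteins that hold iron carriers, were higher (0.97 and 0.86). In the cell wall list, TIR1, a mannoprotein, was higher (1.60), and CWP1 and NCW2 were lower (-1.28 and -0.75). Of the 137 ribosomal protein genes 16 were higher and none lower, with a median of 0.32. Of the 69 ribosome assembly genes 4 were higher, ARX1, DBP2, NOG2 and ENP1. KAR2, the chaperone of the endoplasmic reticulum, was higher (0.88), as were OPI3 and ERO1, of 17 genes of the unfolded protein response. CLN2, a G1 cyclin, was higher (1.13), and CLB1, a mitotic cyclin, and CDC5, the polo kinase, were lower (-0.94 and -0.56). Of 18 alternatives, 8 or more ended the 8-library calls of ENP1, ERO1, FIT3, NOG2 and CDC5, and 1 or 2 those of KAR2, CLN2, CWP1, FIT2 and TIR1. Those of ARX1, DBP2, CLB1, OPI3 and NCW2 ended in 3 to 6.

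No gene was called for a strain difference that changed between 0 and 5 min. In a fit with a strain by time interaction, 0 of 4806 genes were called (0%) by edgeR and 0 by DESeq2, and 22 had an unadjusted p below 0.05. In data simulated with the spread of the 9 libraries, this interaction test recovered 0 of 98 genes changed by a log2 of 1 and 0 of 99 changed by 2. It could thus not have shown such changes with these libraries and that spread. The interaction was not simulated without WT 0 min replicate 1. The strain fit recovered 39.4% and 86.6% of such genes with 9 libraries and 78.9% and 99.0% with 8.

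The same strain difference was set beside that in the 28 libraries taken from 10 to 60 min, which come from the same cultures, WT culture 3 apart. The later difference was taken from those 28 libraries, but with a spread estimated over all 37, so the 2 differences are not independent. At 10 to 60 min, 1073 of 4995 genes differed (21.5%), 533 higher in 25xGFA1 (10.7%) and 540 lower (10.8%). The count was 1566 without WT 0 min replicate 1. It was 288 and 494 without 25xGFA1 cultures 1 and 2 and 553 without WT culture 2. All 50 genes called at 0 and 5 min were called there in the same direction (4.66% of the 1073). Of the 309 genes called over 8 libraries, 242 were called at 10 to 60 min (78.3% of the 309 and 22.6% of the 1073), and 305 of the 309 had the same sign. The exceptions were YAF9, OPI3, SNZ1 and TMN3. The a-specific list kept 7 of 7 genes higher (median log2 difference 2.55), the haploid list had 13 of 13 (median 2.22), and 26 of 28 general stress genes were lower (median -1.19). IME4 had 0 to 1.95 CPM in 25xGFA1 and 10.2 to 37.0 CPM in WT in those libraries.

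When the 0 and 5 min difference was tested against the 10 to 60 min difference, 2 of 4995 genes were called (0.04%). GFA1 had a smaller strain difference at 0 and 5 min, by -2.08 on the log2 scale (0.02% of genes lower, edgeR adjusted p = 0.0262). At 10 to 60 min it had 6093 to 21392 CPM in 25xGFA1 (median 11629) and 136 to 275 CPM in WT (median 186). SNZ1, of vitamin B6 synthesis, differed by 1.20 (0.02% of genes higher, adjusted p = 0.0262). SNZ1 had 116, 70.6, 95.0 and 82.7 CPM in 25xGFA1 and 31.7, 49.7, 41.2, 51.2 and 65.9 CPM in WT at 0 and 5 min, and 50.3 to 117 CPM in 25xGFA1 and 73.9 to 121 CPM in WT at 10 to 60 min. Neither call held without 25xGFA1 culture 1, without 25xGFA1 culture 2 or without WT culture 2, and the count was then 0. Without WT culture 1 or WT culture 3 it was 1, GFA1.

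**Figure D4:**
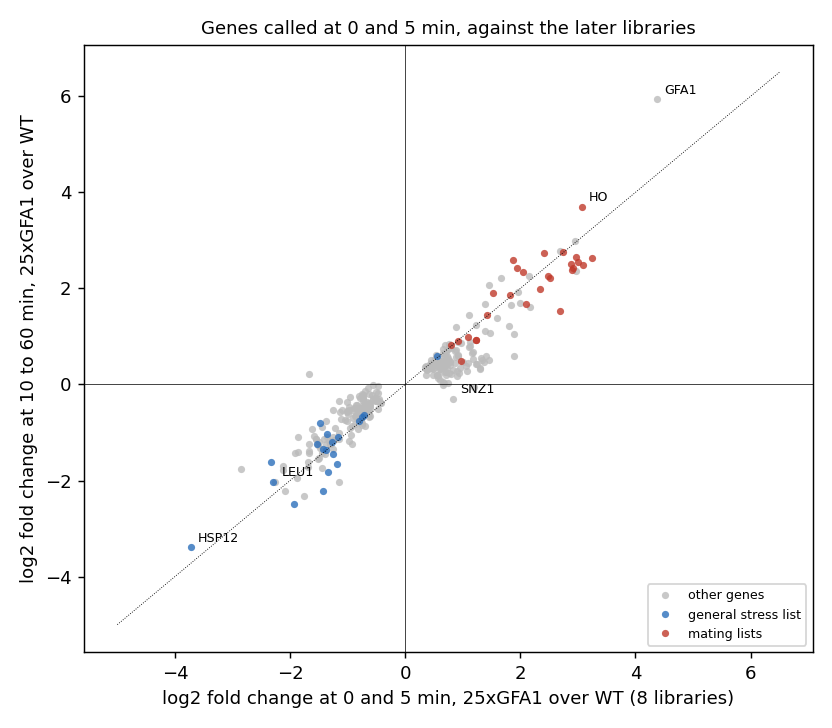
Log2 difference (25xGFA1 over WT) at 0 and 5 min over 8 libraries (x axis) against that at 10 to 60 min (y axis), for 306 of the 309 genes called on the x axis. LEU2, IME4 and HPF1, with at most 3 counts in 1 strain, are left out. The dotted line marks equal differences, and most genes lie in the quadrants of equal sign.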

How the data were processed

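The 37 libraries were QuantSeq 3′-end libraries of total RNA. The authors deposited unnormalized counts of reads for each gene, as whole numbers. Per the submitters' processing notes the genome build was R64, and the tools named are STAR 2.7.10a, HTSeq 2.0.2, FastQC 0.11.9 and SAMtools 1.10. Strand setting and annotation release: not given in the sources used here. The labels mention no molecular identifiers, so a read is not surely a separate molecule, and floors of 3 counts cover counting error only. Of 6464 genes listed, 6461 matched the RefSeq annotation of R64 by identifier. The 5 summary entries of the count table stayed out of library sizes. Among them, reads aligned at several places were 6.17% to 12.8% of a library and reads outside genes 36.2% to 50.6%, and such reads are missing from genes that have near-identical copies. No per-sample column fell outside the series (0 columns).

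Genes with a minimum count of 10 by filterByExpr were kept, library sizes were scaled by TMM, and strain was tested with edgeR 4.0.16 (quasi-likelihood, R 4.3.3) in a model of strain and time, with Benjamini-Hochberg adjustment over all genes tested and a threshold of 0.05. The same model was fitted without WT 0 min replicate 1. The interaction used the 9 libraries, and the 10 to 60 min difference a fit of all 37. Log2 differences are 25xGFA1 over WT, with an SE from the test statistic. DESeq2 1.42.0, limma 3.58.1 (voom), other filters and sizes, and leaving out each library were alternatives. The tests were tried on simulated counts. Figures used matplotlib 3.10.9 in Python 3.11.15.

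Genes named are up to 12 at each end, called in both fits with no overlap between strains and at least 10 CPM in the higher strain, plus members of the gene lists. The comparison and the lists were chosen with earlier results of these data known. CIN5, DIC1, GOR1, RPI1, AGP1, SRD1, AXL2, AHC2, YLR460C, RSN1, YLR227W-B, YBL005W-B, HPF1 and the genes called over 8 libraries alone were chosen after their values were seen. Replicate numbers did not pair the strains: same-numbered libraries of the 2 strains had deviations correlated by -0.09 to 0.08, and the 0 and 5 min libraries of the same culture by 0.16 in 25xGFA1 and 0.37 in WT.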

Additional observations from a re-analysis of the deposited data

Results flagged for a closer look

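In 188 groups of libraries examined (the levels of each named gene within each strain at 0 and 5 min), 18 held 1 library far from the others by Dixon's criterion, which chance gives in about 1 group of 20. Of the 18, 5 were in 25xGFA1 and 13 in WT, and 11 were WT 0 min replicate 1. The flags in 25xGFA1 are about as many as that chance rate gives. Some of these genes were named because they were called only without that library. In that library FAR1, which arrests the cell cycle on pheromone, had 111 CPM where the other WT libraries had 13.0 to 35.2, and STE6, the a-factor exporter, had 100.4 CPM where they had 26.0 to 46.2. AGA2, a subunit of a-agglutinin, had 2.64 CPM there against 14.8 to 18.2 in the other WT libraries, and PRM5, a pheromone-induced gene, 10.6 CPM against 18.2 to 20.8. Also lowest there among WT libraries were ARX1 (13.2 CPM, others 57.7 to 68.9), CWP1 (140.1 CPM, others 343 to 390) and OPI3 (185 CPM, others 513 to 621). Highest there were CDC5 (542 CPM, others 216 to 275), CLN2 (132 CPM, others 49.5 to 59.3), ENP1 (262 CPM, others 126 to 143) and SKT5 (238 CPM, others 112 to 144).

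AHC2 had 154 CPM in 25xGFA1 5 min replicate 2 and 96.3 to 98.2 CPM in the other 25xGFA1 libraries. RDH54 had 178 CPM in 25xGFA1 5 min replicate 1, where the others had 198 to 200.3. RME2 had 45.9 CPM in 25xGFA1 5 min replicate 2, where the others had 32.6 to 34.5. DDR48 had 918 CPM in 25xGFA1 0 min replicate 2, where the others had 852 to 860, and HPF1 had 3.45 CPM in 25xGFA1 5 min replicate 1 and 0 in the others. UTR2 had 84.6 CPM in WT 0 min replicate 3 and 144 to 159 CPM in the other WT libraries. YCL021W-A had 6.60 CPM in WT 5 min replicate 1 and 1.60 to 2.64 CPM in the other WT libraries.

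The strain difference at 0 and 5 min differed from that at 10 to 60 min in GFA1 (by -2.08 on the log2 scale) and SNZ1 (by 1.20), with an edgeR adjusted p of 0.0262 for both.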

How the results depend on the processing

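With 9 libraries the count of 50 was 47 with DESeq2 size factors in edgeR, 47 with no filter, 42 with a minimum count of 30, 117 with the DESeq2 test, 29 with voom and culture as a random effect, 365 with voom library quality weights, 338 with all libraries of the series in the fit, 109 over the 5 min libraries, 3 over the 0 min libraries and 347 without WT 0 min replicates 1 and 3. Leaving out 1 library gave 23 to 309. Over 8 libraries the count of 309 was 238 to 311 with those sizes and filters and the DESeq2 test, 177 with voom and culture, 449 with quality weights, 521 with all libraries, 109 at 5 min and 33 at 0 min, and leaving out 1 library gave 111 to 496. At 10 to 60 min the count of 1073 was 693 with voom and culture, and leaving out a culture or library gave 288 to 1566 (288 and 494 without 25xGFA1 cultures 1 and 2, 553 without WT culture 2). The count of 2 genes between the periods was 1 with voom and culture and 0 to 2 on leaving out a culture or library. The interaction had 0 calls under every alternative run. The last alternatives, over WT 0 min replicates 1 and 3, were chosen after seeing the data. The causes were not tested.

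Of the 50 genes, 50 were called by the DESeq2 test and with quality weights, and the sign reversed in none. The sign of HIS3 reversed without WT 5 min replicate 1 (0.005), without 25xGFA1 5 min replicate 2 (0.008), without WT 0 min replicate 3 (0.053) and with the replicate block (0.056), and it was -0.17 without WT 0 min replicate 1. The replicate numbers did not pair the strains, and with them as a replicate block the counts were 40, 399 and 1247, and 1 between the periods.

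The limits are these. A strain is 2 or 3 cultures here, sampled at both times except for WT culture 3, and 1 WT library stands apart. Genes at 0 in 1 strain have a bound and no fold. Marker genes of mating type and LEU2 separate the strains along with the array, so array, marker and mating-type differences cannot be told apart.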

Other observations

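HPF1, a cell wall mannoprotein gene, had 0, 0, 3.45 and 0 CPM in 25xGFA1, against 2.64, 32.0, 8.68, 11.6 and 34.6 CPM in WT. It was called with 8 libraries (edgeR adjusted p = 0.0142) and not with 9 (adjusted p = 0.0989), and its 25xGFA1 levels are below the floor of 3 counts. NDJ1, a meiotic telomere protein gene, had 21.2, 20.7, 12.1 and 5.51 CPM in 25xGFA1, against 7.93, 1.60, 1.09, 3.30 and 3.30 CPM in WT, with a log2 difference of 2.68 over 8 libraries (adjusted p = 0.0156) and 2.29 over 9 (adjusted p = 0.0905). The WT levels of NDJ1 are at or below the floor of 3 counts in all 5 libraries, so the size of its difference is uncertain. Leaving out 1 of the 8 libraries ended the 8-library call of HPF1 and that of NDJ1 in 3 fits each. Genes of chromosome III had a median log2 difference of 0.15 over 116 genes with 9 libraries and 0.11 with 8, against -0.10 to 0.02 and -0.05 to 0.02 in the other 15 nuclear chromosomes, and 0.05 at 10 to 60 min. Of the genes called with 9 libraries, 5 higher (LEU2, FUS1, YCL021W-A, SRD1 and AHC2) and 1 lower (AGP1) lie on chromosome III.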
